A study of Homo sapiens with 6 samples.

Results

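The 50 genes described here encode assembly factors of the large (60S) ribosomal subunit, the proteins that build the subunit without being part of the finished ribosome. They were taken from a written list of symbols and matched to the deposited count table of 31966 gene rows, in which each symbol had 1 row. Messenger RNA had been sequenced from Kasumi-1 cells, a human leukaemia line of the acute myeloid type that carries the RUNX1-RUNX1T1 fusion. Of 6 libraries, 3 came from cells with a doxycycline-inducible hairpin RNA against luciferase (shLUC, the control) and 3 from cells with a hairpin against FBL (shFBL, the knockdown). Both groups were given doxycycline (100 ng/ml, 72 h), so the controls carry the drug and a hairpin as well. Whether replicates came from separate cultures, and how many hairpins or clones stand behind each group, the labels do not say, and the p-values therefore rest on differences among these libraries, which may be technical. Proteomic data that the study also describes were not analysed here.

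The large subunit starts in the nucleolus, where a long precursor RNA is modified, folded around ribosomal proteins and cut free of its spacers. Assembly factors join in waves: scaffold proteins fold the RNA domains, GTPases and AAA ATPases drive steps forward, the enzymes of the rixosome remove the second internal spacer (ITS2), and export factors take the particle to the cytoplasm, where the last placeholders are exchanged. FBL encodes fibrillarin, which places 2'-O-methyl groups on the same precursor RNA. Dividing leukaemia cells make many ribosomes, and many assembly factor genes are known targets of MYC.

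The labels were checked first. In counts per 1e6 of the scaled library total (CPM), FBL had values of 580, 550 and 544 in control replicates 1 to 3, and of 54.0, 32.4 and 44.9 after knockdown. It was 12.7-fold lower (edgeR adjusted p = 3.85e-06). Library totals ran from 85556322 to 103148412 counts, and each member had 93 to 54159 counts in each library. The myeloid markers MPO, CD33, KIT and RUNX1T1 were present in all libraries, with MPO at 4893 CPM or more. Of the 10 myeloid markers on the list 1 was called lower (MPO, -0.42 on the log2 scale) and 2 higher (CD34, 0.66, and CEBPA, 0.40), while 16.9% of all tested genes were called lower and 15.7% higher. MPO lost its call without knockdown replicate 2 or 3, and CEBPA kept its call without control replicate 2 and lost it in each of the other 5 fits that left out 1 library. Of 8 markers of other cell types, CD79A reached 1.47 CPM and CD3E 0.348 CPM, and CD3D, HBB, COL1A1, EPCAM, PECAM1 and ALB lay at 0.108 CPM or less in every library. Mitochondrial genes took 12.4% to 15.2% of control and 14.7% to 18.8% of knockdown counts, and with these genes and the 20 highest left out 28 members were still called lower. The deviations of control replicate 2 and knockdown replicate 1 from the other libraries of their groups followed the base composition of the transcripts. Results are given below with and without control replicate 2 and knockdown replicate 1. Deviations of the other libraries were not compared with base composition.

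Large subunit assembly factors were lower after FBL knockdown. Of the 50 members, all of which passed the filter on low counts, 29 fell and 0 rose (edgeR's quasi-likelihood test, Benjamini-Hochberg adjusted p below 0.05 over 18486 genes). Over all tested genes 16.9% were called lower and 15.7% higher, beside 58% and 0% of the members. Of all calls 48.1% were higher, and 58.6% under upper-quartile scaling, where 25 members were called lower and 0 higher. Among genes within the members' own range of abundance 22.4% were called lower. The members' median log2 fold change was -0.41, against -0.01 for all tested genes, and 46 of 50 had a value below 0. In bulk RNA, fewer cells with a transcript and less of it in each cell cannot be told apart.

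The 29 called members fell by 0.28 to 1.20 on the log2 scale, and only FTSJ3 and ZNF622 passed a 2-fold difference. Control and knockdown libraries did not overlap, with knockdown lower, for 29 members, where 23.1% of all tested genes had this order. These were 28 called members and TEX10, while the called GNL2 overlapped. Summed over the members, counts took 0.286%, 0.265% and 0.275% of the control libraries and 0.200%, 0.178% and 0.201% of the knockdown libraries. The means were 0.275% ± 0.011 and 0.193% ± 0.013 (SD, n = 3 each). Every knockdown library therefore held a smaller share than every control library.

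The count of members that fell was 19 without knockdown replicate 2, where 11.0% of all tested genes were called lower, and 37 without control replicate 2, where 19.2% were. It was 36 without both control replicate 2 and knockdown replicate 1, a fit added after the data were seen, in which 19.5% of all tested genes were called lower.

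**Figure D1:**
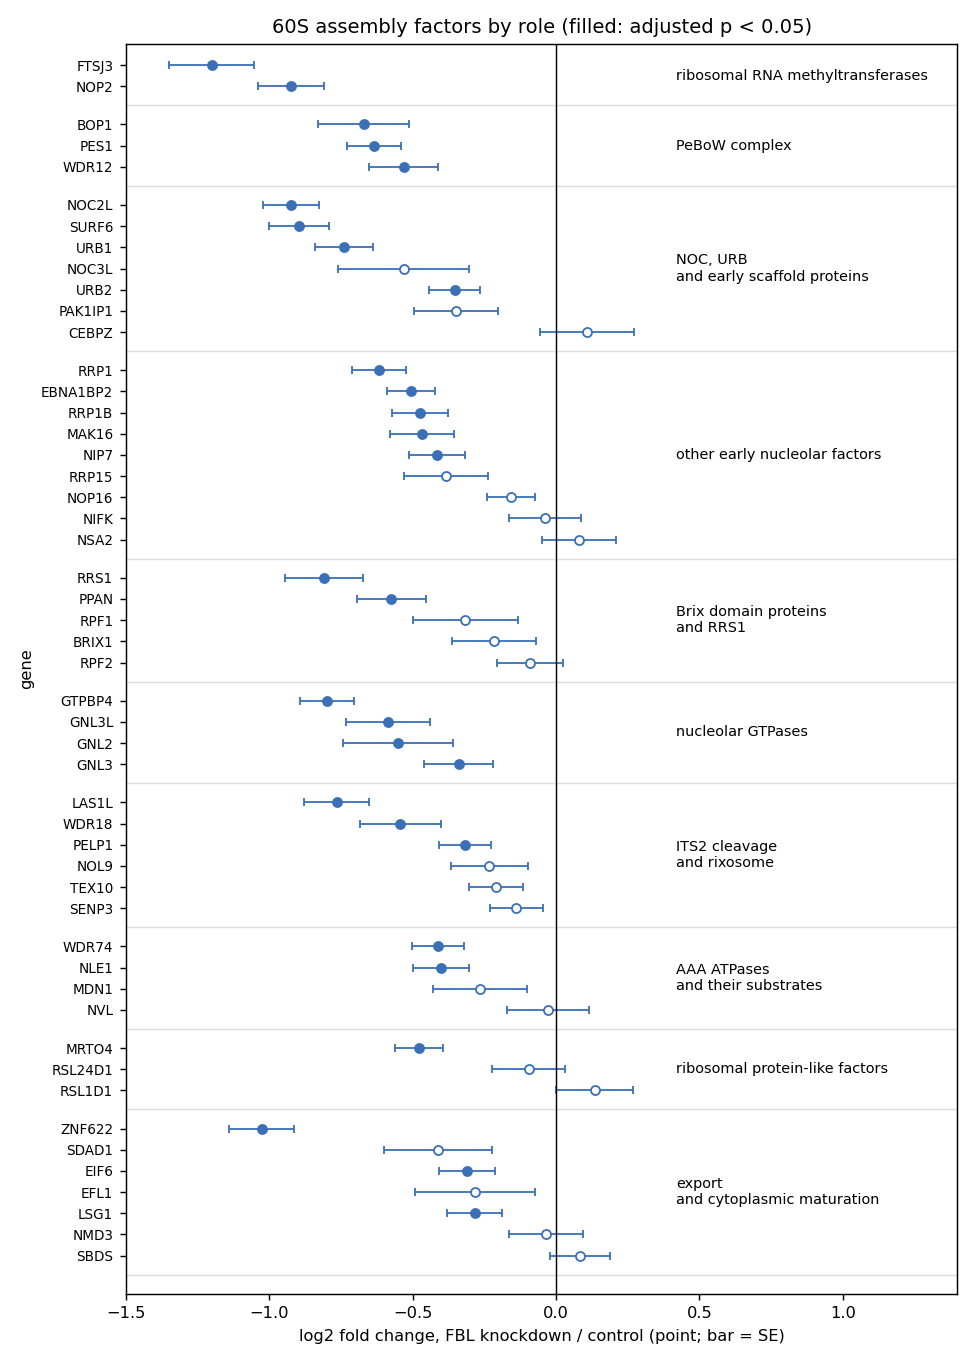
Log2 fold change of each of the 50 assembly factors (horizontal axis, FBL knockdown against control, bars are SE, n = 3 against 3), grouped by role on the vertical axis. Filled points passed the edgeR test: all 29 of them lie left of 0, from FTSJ3 at -1.20 to LSG1 at -0.28, and 4 open points lie right of 0.

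The ribosomal RNA methyltransferases NOP2 and FTSJ3 were among the most reduced members. FTSJ3, the relative of a yeast enzyme that methylates riboses of the large ribosomal RNA and a pre-ribosomal RNA processing factor (chromosome 17, 63819433 to 63830012, GRCh38), stood at 85.8, 57.3 and 58.0 CPM in control and 31.3, 27.1 and 29.01 CPM in knockdown libraries. Control replicate 1 was the high one, and all knockdown libraries lay far below all controls. Its log2 fold change was -1.20 ± 0.15 (SE; edgeR adjusted p = 0.000208), the largest change of any member. NOP2, which makes a 5-methylcytosine in the large ribosomal RNA, stood at 59.1, 42.8 and 48.0 CPM in control and 27.02, 25.2 and 26.7 CPM in knockdown libraries. The knockdown libraries lay within 2 CPM of each other, and the log2 fold change was -0.93 ± 0.12 (SE; edgeR adjusted p = 0.000227). FTSJ3 overlaps PSMC5 on the opposite strand, which fell too (-0.63). The counts are not stated to use strand, so reads of such a pair cannot be told apart.

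All 3 subunits of PeBoW fell. The complex of PES1, BOP1 and WDR12 is needed to process the precursor of the large ribosomal RNAs. PES1, its pescadillo subunit, was at 218, 205 and 201 CPM in control and 149, 121 and 132 CPM in knockdown libraries, a clear gap with little spread on either side. BOP1, the subunit that bridges the other two, was at 365, 554 and 459 CPM in control and 343, 239 and 284 CPM in knockdown libraries. Here knockdown replicate 1 came close to control replicate 1, although the groups did not overlap. WDR12, the WD-repeat subunit, was at 19.6, 14.7 and 16.3 CPM in control and 10.6, 12.4 and 11.99 CPM in knockdown libraries. The log2 fold changes were -0.64 ± 0.09 for PES1, -0.67 ± 0.16 for BOP1 and -0.53 ± 0.12 for WDR12 (SE; edgeR adjusted p = 0.000576, 0.00819 and 0.00635). These estimates lie within 1 SE of BOP1 of each other. BOP1 lost its call without knockdown replicate 2 (adjusted p = 0.0518) and without knockdown replicate 3 (adjusted p = 0.0568).

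Among the NOC, URB and early scaffold proteins, which bind the precursor early and fold its domains, 4 of 7 were called lower and 0 higher. Their median log2 fold change was -0.53. NOC2L, a partner of both other NOC proteins (chromosome 1, 944204 to 959309), was at 188, 194 and 191 CPM in control and 111, 87.1 and 103.2 CPM in knockdown libraries. Its control libraries were nearly equal, and its log2 fold change of -0.93 ± 0.10 had the smallest adjusted p of the members (SE; edgeR adjusted p = 9.81e-05). SURF6, a nucleolar RNA-binding protein, was at 21.9, 24.98 and 22.8 CPM in control and 14.2, 11.5 and 11.8 CPM in knockdown libraries (-0.90 ± 0.11, edgeR adjusted p = 0.000168). URB1, a very large scaffold protein, was at 23.6, 19.0 and 21.0 CPM in control and 13.4, 12.7 and 12.002 CPM in knockdown libraries (-0.74 ± 0.10, edgeR adjusted p = 0.000394). Each of these was lower in every knockdown library than in any control. NOC2L overlaps SAMD11 (-0.49) and URB1 overlaps MRAP (-0.72) on the opposite strand, and both of these genes fell too. URB2, a further scaffold protein, fell by 0.35 ± 0.09, and its adjusted p was 0.0509 without knockdown replicate 2 and 0.0805 without knockdown replicate 3.

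The other NOC proteins did not pass the test. NOC3L, a partner of NOC2L, was at 6.19, 3.04 and 5.17 CPM in control and 2.75, 3.34 and 3.87 CPM in knockdown libraries (-0.53 ± 0.23, edgeR adjusted p = 0.0979), and control replicate 2 lay among the knockdown values. CEBPZ, the human relative of yeast Noc1, was at 4.37, 3.16 and 4.74 CPM in control and 3.73, 4.78 and 4.72 CPM in knockdown libraries (0.11 ± 0.16, edgeR adjusted p = 0.652). It overlaps CEBPZOS on the opposite strand, at a mean of 11.6 CPM in controls (log2 fold change 0.18), so its reads are uncertain. PAK1IP1, a WD-repeat protein that also binds the kinase PAK1, stood at -0.35 ± 0.15 (edgeR adjusted p = 0.0897). Differences between these members were not tested.

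Among 9 other early nucleolar factors, 5 were called lower and 0 higher. The median log2 fold change was -0.42. RRP1, needed to process the precursor RNA, was at 60.1, 61.5 and 57.9 CPM in control and 43.2, 35.0 and 38.8 CPM in knockdown libraries (-0.62 ± 0.09, edgeR adjusted p = 0.000648). Its paralogue RRP1B was at 18.8, 15.8 and 15.7 CPM in control and 12.2, 11.8 and 12.1 CPM in knockdown libraries (-0.47 ± 0.10, edgeR adjusted p = 0.0041). Both paralogues were thus lower in all knockdown libraries. EBNA1BP2, a nucleolar scaffold protein, fell by 0.51 ± 0.08, MAK16 by 0.47 ± 0.11 and NIP7, an RNA-binding protein of late nucleolar particles, by 0.42 ± 0.10. MAK16 and NIP7 each overlap a gene on the opposite strand (TTI2 at -0.58 and COG8 at -0.38), so their reads are uncertain. NIFK, a nucleolar partner of the proliferation antigen Ki-67, was at 20.8, 15.4 and 18.8 CPM in control and 15.6, 19.1 and 18.8 CPM in knockdown libraries (-0.04 ± 0.12). NSA2 was at 42.4, 35.1 and 42.0 CPM in control and 34.0, 47.7 and 44.7 CPM in knockdown libraries (0.08 ± 0.13). In both genes control replicate 2 and knockdown replicate 1 were the low libraries, and the groups overlapped. Each also overlaps a gene on the opposite strand (NIFK-AS1 at -0.12 and GFM2 at -0.08). RRP15 (-0.38 ± 0.15) and NOP16 (-0.16 ± 0.08) did not pass either. On the opposite strand NOP16 overlaps HIGD2A, at 126 CPM in controls (0.17), and ARL10 (-0.65), so its reads are uncertain as well.

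The Brix domain proteins, a family that binds ribosomal RNA at early steps, were mixed. Of BRIX1, RPF1, RPF2, PPAN and RRS1, the last of which has no Brix domain but brings in the 5S particle together with RPF2, 2 fell and 0 rose. RRS1 was at 10.04, 13.5 and 9.91 CPM in control and 6.96, 6.25 and 5.90 CPM in knockdown libraries (-0.81 ± 0.14, edgeR adjusted p = 0.00127). Its partner RPF2 was at 14.2, 12.03 and 15.7 CPM in control and 11.8, 13.8 and 13.7 CPM in knockdown libraries (-0.09 ± 0.12, edgeR adjusted p = 0.588). RRS1 was low in each knockdown library, while the RPF2 groups overlapped. PPAN fell by 0.58 ± 0.12 at a low level of 4.48, 4.96 and 4.27 CPM in control and 3.14, 3.27 and 2.79 CPM in knockdown libraries. It overlaps P2RY11 on the same strand, which was counted at a mean of 44.1 CPM in controls, so its reads are uncertain. BRIX1 (-0.22 ± 0.15) and RPF1 (-0.32 ± 0.18) did not pass. Reads of BRIX1 are uncertain too, since RAD1 overlaps it on the opposite strand at 29.8 CPM in controls (-0.11).

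All 4 nucleolar GTPases were called lower, but 2 of the calls were narrow. GTPBP4, which sits on the particle through much of its nuclear life (chromosome 10, 988019 to 1019936), was at 20.2, 17.8 and 20.3 CPM in control and 10.7, 11.8 and 11.0 CPM in knockdown libraries, a wide gap (-0.80 ± 0.09, edgeR adjusted p = 0.000168). GNL3, or nucleostemin, was at 19.9, 14.4 and 17.4 CPM in control and 12.8, 14.2 and 13.9 CPM in knockdown libraries. Its lowest control was barely above its highest knockdown library, and with a log2 fold change of -0.34 ± 0.12 the edgeR adjusted p was 0.04998. Its paralogue GNL3L was at 24.9, 16.3 and 17.2 CPM in control and 13.3, 12.3 and 13.4 CPM in knockdown libraries (-0.58 ± 0.15, edgeR adjusted p = 0.0112, and 0.0636 without knockdown replicate 2). GNL2, needed before export, was at 2.65, 1.64 and 2.73 CPM in control and 1.68, 1.57 and 1.53 CPM in knockdown libraries (-0.55 ± 0.19, edgeR adjusted p = 0.0472). Control replicate 2 of GNL2 lay below knockdown replicate 1. GNL3 lost its call in 13 and GNL2 in 11 of the alternative settings.

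In the group that removes ITS2, 3 of 6 members were called lower and 0 higher (median log2 fold change -0.27). LAS1L, the endonuclease that makes the cut (X chromosome, 65512582 to 65534775), was at 100, 79.9 and 76.4 CPM in control and 55.1, 47.0 and 48.7 CPM in knockdown libraries (-0.77 ± 0.11, edgeR adjusted p = 0.000611). NOL9, the kinase that acts on the new end beside LAS1L, was at 17.7, 12.4 and 13.5 CPM in control and 11.6, 12.03 and 13.5 CPM in knockdown libraries (-0.23 ± 0.13, edgeR adjusted p = 0.209). Thus LAS1L was lower in every knockdown library, and the NOL9 groups overlapped. WDR18, a rixosome scaffold subunit, was at 130, 201 and 162 CPM in control and 124, 101 and 114 CPM in knockdown libraries (-0.54 ± 0.14, edgeR adjusted p = 0.0141). PELP1, the large scaffold subunit, was at 66.9, 69.9 and 65.7 CPM in control and 60.4, 51.1 and 51.2 CPM in knockdown libraries (-0.32 ± 0.09, edgeR adjusted p = 0.0201). Both were lower without overlap, and both lost the call without knockdown replicate 2 (adjusted p = 0.0817 and 0.0925) and without knockdown replicate 3 (adjusted p = 0.0747 and 0.16). PELP1 also lost it without control replicate 3 (adjusted p = 0.0585). TEX10, the remaining scaffold subunit, was at 12.4, 11.3 and 11.6 CPM in control and 9.99, 10.8 and 9.73 CPM in knockdown libraries (-0.21 ± 0.09, edgeR adjusted p = 0.11), a small gap that did not pass. SENP3, a SUMO protease that acts on PELP1, was at 25.3, 30.5 and 26.8 CPM in control and 25.6, 24.3 and 25.04 CPM in knockdown libraries (-0.14 ± 0.09, edgeR adjusted p = 0.275).

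**Figure D2:**
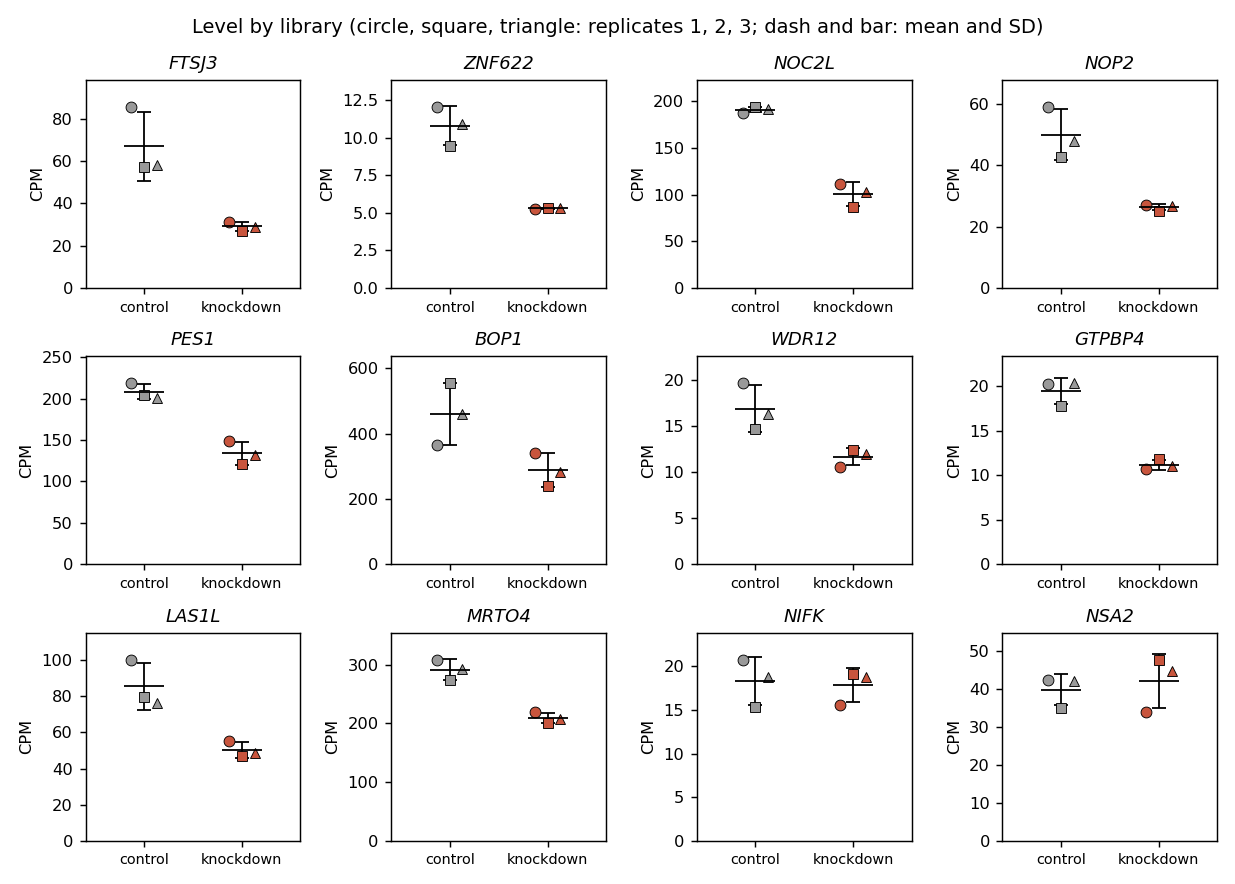
CPM of 12 assembly factors in each library (vertical axis from 0; circles, squares and triangles are replicates 1, 2 and 3; dash and bar are mean and SD, n = 3). FTSJ3, ZNF622, NOC2L and NOP2 have separate groups, BOP1 has its knockdown replicate 1 near control replicate 1, and the groups of NIFK and NSA2 overlap.

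AAA ATPases strip factors off the particle, and here 2 substrates fell while the 2 enzymes did not pass. WDR74, which NVL releases, was at 68.6, 72.5 and 69.5 CPM in control and 57.3, 47.4 and 53.6 CPM in knockdown libraries (-0.41 ± 0.09, edgeR adjusted p = 0.00534). NLE1, which MDN1 pulls from the particle, was at 131, 154 and 145 CPM in control and 120, 97.8 and 108 CPM in knockdown libraries (-0.40 ± 0.10, edgeR adjusted p = 0.0102). Each had all knockdown libraries below all controls, and NLE1 lost its call without knockdown replicate 2 (adjusted p = 0.0563) or 3 (adjusted p = 0.0792). NVL itself was at 6.003, 4.30 and 4.66 CPM in control and 4.35, 5.11 and 5.19 CPM in knockdown libraries (-0.03 ± 0.14, edgeR adjusted p = 0.896). MDN1, a giant dynein-like ATPase, stood at -0.27 ± 0.16 (edgeR adjusted p = 0.244), but it passed without control replicate 2. GC content, described below, was 46.0% for NVL and 47.9% for MDN1, and 55.4% for WDR74 and 55.8% for NLE1. The difference between enzymes and substrates was not tested. An antisense gene overlaps WDR74 and fell as well (-0.36).

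Of 3 members that resemble ribosomal proteins 1 fell. MRTO4, which holds the place of the stalk protein RPLP0, was at 308, 274 and 293 CPM in control and 219, 201 and 207 CPM in knockdown libraries (-0.48 ± 0.08, edgeR adjusted p = 0.00146). RSL24D1, the forerunner of RPL24, was at -0.10 ± 0.13, and RSL1D1, with a fold like that of the RPL10A family, at 0.14 ± 0.13. MRTO4, which overlaps EMC1 on the opposite strand (-0.47), was lower in every knockdown library, and the groups overlapped for the other two.

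Among factors of nuclear export and cytoplasmic maturation 3 of 7 were called lower and 0 higher (median log2 fold change -0.28). ZNF622, a zinc finger protein of the cytoplasmic particle (chromosome 5, 16451519 to 16465792), was at 12.1, 9.45 and 10.9 CPM in control and 5.27, 5.35 and 5.30 CPM in knockdown libraries. The knockdown libraries were nearly equal, and the log2 fold change was -1.03 ± 0.11 (SE; edgeR adjusted p = 0.000114). EIF6, which keeps the new subunit from joining the small one, fell by 0.31 ± 0.10 (edgeR adjusted p = 0.0313), and LSG1, the GTPase that frees the export adaptor NMD3, by 0.28 ± 0.10 (edgeR adjusted p = 0.043). These calls were weak: EIF6 lost it in 7 and LSG1 in 12 of the alternative settings. NMD3 was at 7.84, 5.96 and 7.54 CPM in control and 6.26, 7.57 and 7.02 CPM in knockdown libraries (-0.03 ± 0.13), with overlapping groups. B3GALNT1 overlaps NMD3 on the opposite strand at 5.52 CPM in controls (0.13), so reads of NMD3 are uncertain. SBDS and EFL1, which together evict EIF6, stood at 0.08 ± 0.11 and -0.28 ± 0.21, and the export factor SDAD1 at -0.41 ± 0.19. None of these passed. SBDS has a near-identical copy, SBDSP1, at 6.70 CPM in controls beside 6.27 CPM for SBDS itself, so its value is uncertain.

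Levels of different members can be compared only per length, for which the deposited RPKM values (reads per kilobase of deposited gene length and per library depth) were used. In controls BOP1 was highest at 124 ± 25.96 RPKM (SD, n = 3), followed by EIF6 at 115 ± 5.001 and MRTO4 at 104 ± 5.70. BOP1 did not differ from its neighbours beyond its spread. WDR18 (70.0 RPKM), PES1 (45.7 RPKM) and NOP16 (37.9 RPKM) came next. At the low end were RRP15 (0.394 RPKM), EFL1 (0.306 RPKM) and MDN1 (0.211 RPKM). Subunits of 1 complex were far apart: WDR12, at 1.86 ± 0.27 RPKM, lay far below its PeBoW partners, and TEX10, at 1.62 RPKM, below WDR18. WDR12 has a long deposited gene length of 9098 bases against 3716 for BOP1, and this length enters the RPKM. Deposited lengths can exceed the longest coding transcript in GENCODE v29 to unequal degrees. They are 7261 bases against 3074 for TEX10 and 2357 against 1608 for WDR18, so the order of levels depends on the length used.

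Most of the members that fell had a high GC content. GC content was taken from the longest coding transcript of each gene in GENCODE v29, which all 50 members have, and ran from 34.1% for NSA2 to 65.9% for WDR18 with a median of 48.3%. Of the 25 members richest in GC, 22 fell, with a median log2 fold change of -0.58, and the exceptions were NOL9, NOP16 and SENP3. Of the other 25 members 7 fell (WDR12, MAK16, GNL3, NIP7, GNL2, GTPBP4 and LSG1), and the median of these 25 was -0.28. Only 4 of these 25 fell when control replicate 1 or 3 or any 1 knockdown library was left out (median -0.30 to -0.17). Of the 25 richer members 15 to 22 fell in the same fits, with 15 without knockdown replicate 2. In those fits 9.79% to 16.2% of all tested genes were called lower. Without control replicate 2, 14 of the 25 poorer members fell, and 19.2% of all tested genes were called lower. Across the 50 members GC content and log2 fold change had Pearson's r = -0.55 and Spearman's rho = -0.54. Across 10717 tested protein-coding genes at a mean of 1 CPM or more the same values were 0.05 and 0.01. Among those genes 26.4% of the ones in the upper GC range and 18.3% of those in the lower range were called lower. These are correlations across genes that share the same 6 libraries, given as a description.

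The same property went with the deviations of control replicate 2 and knockdown replicate 1 within their groups. Over the members, the log2 ratio of control replicate 2 to the mean of the other controls followed GC content with r = 0.74, and that of knockdown replicate 1 to the other knockdown libraries with r = 0.88 (n = 50 genes). Over all 10717 genes r was 0.77 and 0.73. Control replicate 2 was the lowest control for 32 of the 50 members, and control replicate 1 was the highest for 29. Control replicate 2 lay below the mean of the other controls for all 25 members poorer in GC, and above it for 13 of the 25 richer ones. Without control replicate 2 alone, 23 of the 25 richer members fell (median -0.52) and 14 of the 25 poorer ones (median -0.44), a smaller gap between the medians. Without both control replicate 2 and knockdown replicate 1, 22 of the 25 richer members fell (median -0.59) and 14 of the 25 poorer ones (median -0.36). NOC3L, PAK1IP1, RRP15, BRIX1, RPF1, MDN1 and SDAD1 then passed the test, at -0.27 to -0.65. The part of base composition in the pattern across members was not tested. GC content also went with level, with r = 0.58 to the log2 control RPKM, and the median control level was 12.9 RPKM for the 25 richer and 2.68 RPKM for the 25 poorer members.

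**Figure D3:**
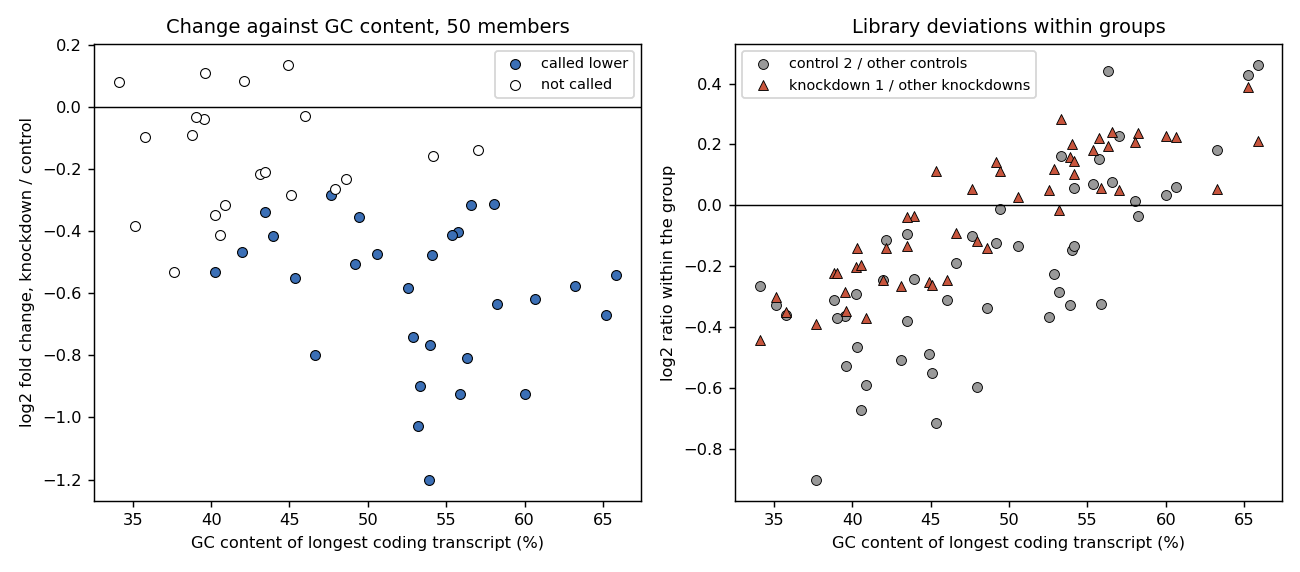
Left: log2 fold change of the 50 members against the GC content of their longest coding transcript, filled where the edgeR test called them lower (22 of the 25 richer in GC, 7 of the 25 poorer). Right: log2 ratio of control replicate 2 (circles) and knockdown replicate 1 (triangles) to the mean of the other libraries of their group, which rise with GC content (r = 0.74 and 0.88).

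Promoters of the members were searched for short motifs. RefSeq windows on GRCh38.p14, from 250 bases before to 50 after each start, were found for 43 of the 50 genes. There were 51 such windows, of which 37 held 20 bases of a GENCODE v29 transcript start of that gene near the RefSeq start. A gene was counted if any of its windows held the motif. Shares of all windows count single windows and are therefore a different measure. Both strands were searched. The E-box CACGTG, the site of MYC and related factors, was held by 14 of 43 members (32.6%), against 12.4% of 11040 tested genes with a window and 7.26% of all windows. The ETS-type core CCGGAAG was held by 22 of 43 (51.2%, against 21.4% of tested genes and 10.3% of all windows). CCAAT was held by 11 members (25.6%, against 42.0% of tested genes and 34.6% of all windows). TCGCGAGA and GCATGCGC were each held by 2 members (4.65%, against 2.76% and 6.30% of tested genes). No motif contains another, and a match describes only the letters in the window. Of the members with CACGTG 9 of 14 fell, and of those without it 15 of 29. For CCGGAAG the counts were 12 of 22 and 12 of 21.

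Stretches from these windows are shown for members with different outcomes, with the motif in capitals. They lie before the start and outside all exons of GENCODE v29, and they read 5′ to 3′ on the strand of the gene. ZNF622 and LAS1L fell, while TEX10, RPF1 and MDN1 did not pass. CTTCCGG is CCGGAAG on the other strand.
ZNF622, chr5:16465801-16465841, minus strand: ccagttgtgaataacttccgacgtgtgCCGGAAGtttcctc
LAS1L, chrX:65534896-65534956, minus strand: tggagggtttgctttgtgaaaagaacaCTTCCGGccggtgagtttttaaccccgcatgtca
RPF1, chr1:84479176-84479236, plus strand: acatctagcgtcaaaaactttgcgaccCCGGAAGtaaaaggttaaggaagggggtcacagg
TEX10, chr9:100353024-100353084, minus strand: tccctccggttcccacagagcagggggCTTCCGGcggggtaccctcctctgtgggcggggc
TEX10, chr9:100352943-100352999, minus strand: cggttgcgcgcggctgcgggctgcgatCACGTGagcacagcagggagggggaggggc
MDN1, chr6:89819917-89819976, minus strand: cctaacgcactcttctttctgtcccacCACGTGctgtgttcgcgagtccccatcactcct
The same ETS-type core stands before the start of ZNF622, which fell to 49.1% of control, and of RPF1, which did not pass. RPF1 and MDN1 did pass without control replicate 2, and RPF1 also without the filter on low counts. TEX10 holds both motifs within 115 bases of its start and did not pass.

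Other genes of the same pathway were taken from written lists. Of 31 further large subunit factors 19 were called lower and 0 higher (median log2 fold change -0.45). The AAA ATPase SPATA5, which recycles RSL24D1 in the cytoplasm, was at -1.12 ± 0.20, the helicase DDX54 at -1.06 ± 0.10 and the helicase DDX27, a PeBoW partner, at -0.97 ± 0.12 (edgeR adjusted p of 0.00155 or less). Of 54 tested small subunit factors 32 were called lower and 1 higher (median log2 fold change -0.44), with 18, 19 and 20 lower without knockdown replicate 2, knockdown replicate 3 and control replicate 3. BMS1, a GTPase whose pseudogene copies can share its reads, was at -1.40 ± 0.23, UTP3 at -1.14 ± 0.15 and NOP9 at -0.95 ± 0.10, whereas the methyltransferase EMG1 rose by 0.25 ± 0.08. EMG1 kept its call without knockdown replicate 1 and lost it in each of the other 5 fits that left out 1 library. Shares called lower were thus 58% for the members, 61.3% for the further large subunit factors and 59.3% for small subunit factors. Without knockdown replicate 2 these shares were 38%, 48.4% and 33.3%, against 11.0% of all tested genes. Without knockdown replicate 3 they were 40%, 41.9% and 35.2%, against 9.79%. Without control replicate 3 they were 48%, 51.6% and 37.0%, against 12.1%.

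Among 47 genes for ribosomal proteins of the large subunit, which the members help to assemble, 1 was called lower (2.13%, against 16.9% of all tested genes) and 10 higher (21.3%, against 15.7%). Their median log2 fold change was 0.03. The higher calls numbered 4 (8.51%, against 9.79% of all tested genes) without knockdown replicate 2 and 5 (10.6%, against 11.6%) without knockdown replicate 3. They numbered 5 (10.6%, against 10.1%) without control replicate 3 and 6 (12.8%, against 14.8%) without control replicate 1. Without knockdown replicate 1 they numbered 13 (27.7%, against 15.1%), and without control replicate 2 they numbered 10 (21.3%, against 17.4%). RPL3, an early-binding protein of the large subunit, fell by 0.42 ± 0.08, while RPL39 (0.59 ± 0.13), RPL41 (0.37 ± 0.10), RPLP0 (0.34 ± 0.08) and RPL12 (0.34 ± 0.08) were among those that rose. RPL41 lost its call without knockdown replicate 2 or 3, and RPLP0 without control replicate 1. MRTO4 and RPLP0, placeholder and final protein at 1 site, had values of -0.48 and 0.34. RSL24D1 and RPL24, another such pair, had -0.10 and -0.08, and neither was called. Many processed copies of ribosomal protein genes can share their reads, so these values are uncertain. No test of the difference between lists was made.

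**Figure D4:**
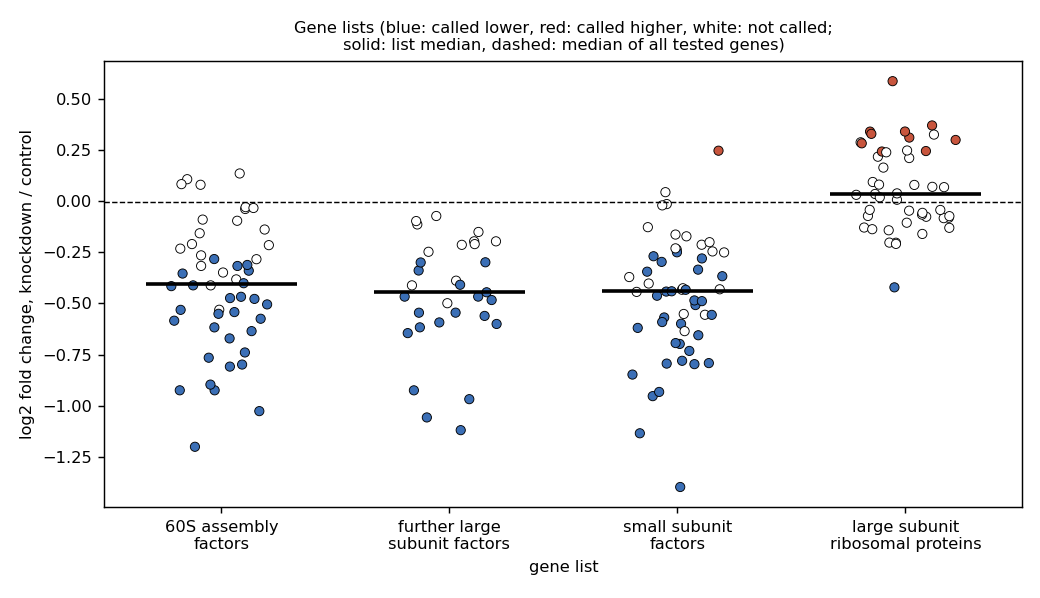
Log2 fold change (vertical axis, knockdown against control) of the tested genes in 4 lists (horizontal axis), blue where called lower, red where called higher and white where not called. Solid lines are list medians (-0.41, -0.45, -0.44 and 0.03) and the dashed line is the median of all tested genes (-0.01).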

How the data were processed

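The authors deposited whole-number counts per Ensembl gene with gene lengths, and a table of RPKM values. Tools listed in the submitters' processing notes are featureCounts, HISAT2, edgeR and cutadapt 1.18, with the build GRCh38. For the annotation release, the strand setting and multi-mapped reads, the sources used here give nothing. Recomputing the authors' RPKM values from counts, lengths and TMM-scaled totals gave all 191796 within a relative tolerance of 1e-06.

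Counts were filtered with filterByExpr (minimum count 10, minimum total 15; 18486 genes left), scaled by TMM and compared between groups with edgeR 4.0.16's quasi-likelihood test in R 4.3.3, with Benjamini-Hochberg adjustment over all tested genes and a threshold of 0.05. SE values come from the F statistic. The script was tested on simulated counts. limma 3.58.1 and DESeq2 1.42.0 served as alternatives. Positions come from GENCODE v29.

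The members, role groups and lists were chosen with earlier results of these data known. Values per library are given for each role's largest and most certain called members, the 12 largest changes, the 4 smallest changes, PeBoW and the ITS2 group. Further values were added after they were seen.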

Additional observations from a re-analysis of the deposited data

How the results depend on the processing

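The fall of the members kept its direction in all 18 alternatives: between 19 and 37 members were called lower, 0 were called higher in each, and the median ranged from -0.49 to -0.30. Of the 29 called members 19 were called in every alternative that tested them, 10 lost the call in at least 1, and none of the 29 changed sign. Of 21 members not called, 8 passed in at least 1. With 1 library left out, 19 (without FBL knockdown replicate 2) to 37 (without control replicate 2) members fell with a median of -0.49 to -0.34, and 1836 to 3624 of all genes were lower and 1834 to 3285 higher. Without both control replicate 2 and FBL knockdown replicate 1, chosen after seeing the data, 36 members were lower, none of the 29 lost its call, and 3627 of all genes were lower and 3787 higher. On log2(RPKM + 1), which understates low genes, the median was -0.30. The stricter filter left 41 members (25 lower) and fewer genes, of which 1924 were higher. Under upper-quartile scaling 58.6% of all calls were higher, in place of 48.1%, and the median of all genes was 0.06. DESeq2 called 29 members lower and limma voom 27.

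Same-numbered replicates did not deviate together (r = -0.28, -0.20 and 0.04 for numbers 1, 2 and 3), so the numbers were not taken to pair libraries. A replicate block called 21 members lower, and 1958 of all genes lower and 1816 higher. EFL1, SDAD1 and GNL2, the members with the lowest CPM, had SE of 0.19 to 0.21, and NOC3L, at a higher level, had 0.23.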

Other observations

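Several members share DNA with other genes that were counted at 5% or more of their own level: 20 of the 50 had such an overlap in GENCODE v29, for 2 of them (PPAN and SDAD1) on the same strand. Of these 20 members 10 fell, and of the 30 without such an overlap 19 fell. NAAA, which overlaps SDAD1 on the same strand, had a log2 fold change of 0.58 beside -0.41 for SDAD1. NOC2L has copies named NOC2LP1 and NOC2LP2, which stood at 9.62 and 2.89 CPM in controls and at 5.24 and 1.54 CPM in knockdown libraries, beside 191 CPM for NOC2L in controls. The NSA2 copy NSA2P7 had a mean of 1.29 CPM in control and 1.41 CPM in knockdown libraries.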
